A study of Mus musculus with 9 samples.

Results

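The wild-type libraries of a study of mouse prefrontal cortex were described for what they hold at baseline: which genes and gene families carried most of the RNA, which cell types and cortical layers were represented, and which genes differed among the libraries. These were all 3 libraries labelled WT, out of 9 in the series, with all 14444 genes that carried a value. The mice were wild type, aged 5 to 8 postnatal weeks, and had been given saline. The other groups of the series, Shank3 mutants with saline or with 1 mg per kg of UNC0642, an inhibitor of the histone methyltransferases EHMT1 and EHMT2, were not compared here. RNA was total RNA depleted of ribosomal RNA and made into stranded libraries. The labels do not say whether the 3 libraries came from separate animals, whether animals were pooled, or the sex or strain of the mice, so the spread among libraries may be technical.

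The prefrontal cortex is a layered sheet in which most neurons are excitatory pyramidal cells that release glutamate, while a minority are inhibitory interneurons that release GABA. Upper-layer pyramidal cells mostly project within the cortex, layer 5 cells also project to the brainstem and spinal cord, and many layer 6 cells project to the thalamus. Astrocytes clear glutamate, oligodendrocytes wrap axons in myelin, microglia are the resident immune cells, and endothelial and mural cells form the vessels. In bulk tissue, fewer cells of a type and less RNA per cell cannot be told apart.

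Values below are the deposited ones, a signal that the authors call CPM; libraries are given in the order replicate 1, 2 and 3. The values summed to 1028773, 1002284 and 975390 per library. Whole reads recovered from them came to 12035098, 13267359 and 12445073. Each value holds a small constant, so that a gene without reads still has a value above 0, and a shift for each gene between 2 sets of libraries (UNC0642 replicates 2 and 3 share a set with wild type). The shift leaves the ratios among the 3 wild-type libraries as they were and changes the level of a gene, by more than 1.5-fold in 15 of the 11780 genes with a mean value of at least 5. Replicate 3 stood apart from the other libraries: over those 11780 genes, the SD of the log2 differences was 0.20 between replicates 1 and 2, 0.30 between replicates 1 and 3 and 0.26 between replicates 2 and 3.

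Markers of the tissue are given first. Slc17a7, which encodes the vesicular glutamate transporter VGLUT1 of cortical excitatory neurons, had values of 1954, 1665 and 1468. Tbr1, a transcription factor gene of cortical projection neurons, had 156.9, 144.8 and 110.4. Genes of the Y chromosome were present throughout: Ddx3y, an RNA helicase gene, had values of 50.2, 58.2 and 46.8, and Kdm5d, a histone demethylase gene, of 23.8, 28.2 and 28.8. No library lacked them, so each held RNA from male mice; Xist was not among the genes analysed here. Shank3, the scaffold gene mutated in the other groups, had values of 307.7, 314.6 and 355.2 and lay at the 90.4 percentile of genes by level per kb of exon.

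Camk2a, the alpha subunit of the calcium/calmodulin-dependent kinase of excitatory synapses, had the largest share of the summed values. Its values were 4820, 4497 and 5281, a mean share of 0.486%. Kif5a, a motor of axonal transport, followed with 4330, 4625 and 4960, a share of 0.464%. The libraries of the 2 genes overlapped, so their order was within the spread. A share of the summed values grows with the length of a transcript, so these ranks do not say how many molecules each gene had.

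Further down the ranking came a long noncoding RNA, the ribosomal RNA precursor and genes of astrocytes and synapses. Meg3, an imprinted noncoding RNA, had values of 2758, 3605 and 4020. Rn45s, the 45S ribosomal RNA precursor left after depletion, had 4206, 3025 and 3210, which were 0.347% of the total, and is not polyadenylated messenger RNA. Slc1a2, the astrocytic glutamate transporter GLT-1, had 3009, 2945 and 3745. The presynaptic fusion protein gene Snap25 had 3189, 2957 and 2090. Also among the leading 20 were Cpe, Hspa8, Camk2n1, Sparcl1, Hpcal4, Snhg11, 2900097C17Rik, Ndrg4, Eef1a1, Aldoa and Glul. The leading 20 genes held 5.22% ± 0.21 (SD, n = 3) of the summed values, the leading 100 held 15.0%, and 1117 genes were needed to reach 50%. The plot of leading genes shows that the spread among libraries exceeded the distance between many neighbours in the ranking.

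**Figure D1:**
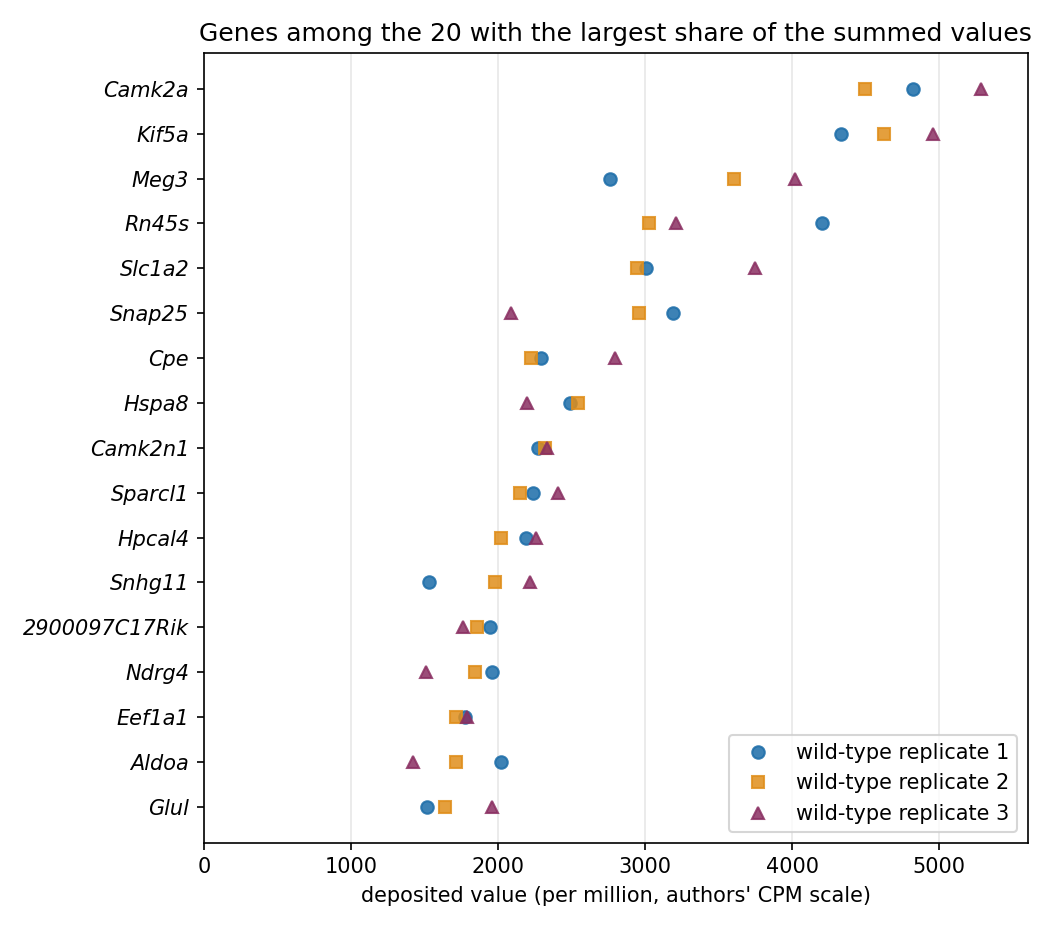
Deposited value (horizontal axis, on the scale the authors call CPM) of 17 of the 20 genes with the largest mean share of the summed values, with a symbol for each of the 3 wild-type libraries. Camk2a and Kif5a lie between 4330 and 5281 in every library, while Meg3, Snap25 and Rn45s are spread over more than 1000 units.

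Levels between genes were compared per kb, as the value divided by the summed length of all annotated exons of the gene, which could be done for 14311 genes. The median gene had a value of 5.66 per kb and the gene at the 99th percentile 187. Calm2, a calmodulin gene, was the highest with 1003 ± 162 per kb (SD, n = 3). It was followed by Cpe, which encodes a peptide-processing enzyme, with 934 ± 119, and by Nrgn, a calmodulin-binding protein gene of dendritic spines, with 832 ± 119. These 3 levels overlapped within their SD. Calm2 was nevertheless above Nrgn in each library, as both fell from replicate 1 to replicate 3. Calm3, which encodes the same protein as Calm2, had 682.4 ± 82.6. Ribosomal and translation genes (Rplp1, Eef1a1), secreted or lysosomal protein genes (Cst3, Psap, Apoe, Sparcl1), chaperones (Hspa8, Hsp90ab1), Cox8a of the respiratory chain, Sepw1, Aldoa and Glul made up most of the remainder with Kif5a, Camk2a and Camk2n1. By this measure and by share of the summed values, 10 genes were in both rankings of 20.

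Protein-coding genes made up 13628 of the 14444 genes and 97.7% of the summed values. Long intergenic noncoding RNAs made up 171 genes and 0.841%, most of it from a few abundant RNAs. Snhg11, a host gene of a small nucleolar RNA, had values of 1530, 1979 and 2221, and Malat1, a nuclear noncoding RNA, of 685.9, 749.7 and 1050. Miat, another nuclear noncoding RNA of neurons, had 477.1, 591.8 and 675.7. Replicate 1 was the lowest library for 10 of the 13 noncoding RNAs measured from a list of 18, against 33.4% of all genes. None of the 15 mitochondrially encoded genes and 1 of 20 small structural RNAs, Rn45s, were among the genes analysed, so shares are of the nuclear genes listed and not of all RNA in the tissue. The 5 genes of the Y chromosome held 0.0136% of the values, and the 497 of the X chromosome 3.31%.

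Excitatory neuron genes had the highest median level among the cell type lists, 35.8 per kb over 14 measured genes, in the upper part of all genes. Nrgn, Camk2a and Slc17a7 led the list. After them came Nptx1, which encodes a secreted pentraxin of synapses, with values of 577.3, 511.0 and 410.6, and Neurod6, a transcription factor gene of pyramidal cells, with 154.5, 148.5 and 96.1. The other vesicular glutamate transporters were far lower: Slc17a6, typical of the thalamus, had values of 10.2, 11.8 and 9.95, and Slc17a8 had 5.75, 6.65 and 2.61. Per kb, Slc17a7 was 160 ± 27 times (SD, n = 3) as high as Slc17a6, and 11.7 ± 1.8 times as high as Slc32a1, the vesicular GABA transporter. With the longest transcript as the length, the ratios were 214 and 20.4, so both rest on the gene model more than on the spread among libraries.

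Genes of the upper layers and of layers 4, 5 and 6 were measured. Among upper-layer genes, Cux2, a homeobox gene of layers 2 to 4, had values of 82.5, 79.9 and 87.9, Calb1, a calcium-buffer gene, had 110.8, 111.6 and 123.9, and Wfs1, a gene of the endoplasmic reticulum, had 130.2, 99.6 and 121.5. Layer 4 genes were low, with a median of 1.99 per kb, at the 25.2 percentile: Rorb, the receptor gene that marks this layer, had values of 26.2, 20.7 and 30.2, and Scnn1a, a sodium channel gene of sensory layer 4, had 0.914, 1.07 and 2.06. Layer 5 genes had a median of 7.75 per kb, close to the 8.28 of the upper-layer genes. Fezf2, the transcription factor of subcerebral projection neurons, had values of 61.7, 52.7 and 42.3, and Bcl11b, which acts with it, had 82.1, 78.0 and 72.4. Layer 6 genes were also low, with a median of 2.56 per kb, at the 30.3 percentile. Of these, Rprm had 86.1, 56.4 and 42.4, Tle4 had 72.8, 68.7 and 51.0, and Foxp2 had 16.5, 13.5 and 10.7. For each of these 5 deep-layer genes replicate 1 was the highest library and replicate 3 the lowest.

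Inhibitory interneurons were represented by all their main classes. The GABA-synthesis genes Gad1 and Gad2 had values of 283.6, 272.4 and 291.0, and of 158.8, 157.5 and 164.0, among the more even genes in the set. Sst, the peptide gene of somatostatin interneurons, had values of 235.2, 221.3 and 242.6, or 323 ± 15 per kb. Cck, which encodes cholecystokinin and is also made by pyramidal cells, had 324 ± 41 per kb, so these 2 peptides did not differ beyond their spread by this measure; with the longest transcript as the length, Cck was 1.64 times as high as Sst. Next in order were Npy, of neuropeptide Y cells, with 125.9 ± 4.5 per kb, Lamp5, of neurogliaform cells and also pyramidal cells, with 52.6, Pvalb, the calcium buffer of fast-spiking cells, with 31.7 ± 4.5, and Vip with 15.0 ± 0.4. Per kb, Sst was 10.4 ± 2.0 times as high as Pvalb and 21.6 ± 0.4 times as high as Vip. The ratios were 9.56 and 16.1 with the longest transcript as the length. These are ratios of RNA, and the number of cells of each class was not measured. Of the developmental transcription factors of interneurons, Lhx6 had values of 23.1, 22.9 and 21.3 and Dlx1 of 26.8, 25.8 and 34.0. The median value over all genes was 25.45. Dlx2 was low, with 2.54, 4.81 and 4.75.

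Astrocyte genes followed excitatory genes, with a median of 27.3 per kb over 23 genes. Apoe, the lipid carrier, reached 589 ± 112 per kb and Glul, glutamine synthetase, 513 ± 69. Slc1a2 was 2.88 ± 0.18 times as high per kb as Slc1a3, the other astrocytic glutamate transporter, and 1.68 times as high with the longest transcript as the length. Gfap, a filament gene that is low in the cortical grey matter and high in white matter and the surface, had values of 66.6, 102.1 and 138.5. Oligodendrocyte genes had a median of 21.8 per kb over 19 genes, with the myelin gene Mbp at 178 per kb. Their level depends on the shift between the sets: the summed value of the list was 4041 on average, and 5168 in the recovered reads scaled to RPM.

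Microglial genes had a median of 12.8 per kb over 20 genes, all of them with a mean value of at least 5. Csf1r, the growth factor receptor that microglia need, had values of 103.7, 116.1 and 151.4, and Cx3cr1, a chemokine receptor gene, 54.3, 56.5 and 70.5. Oligodendrocyte precursor genes had a median of 7.0 per kb, with Pdgfra, their growth factor receptor, at 59.4, 62.9 and 88.2. Endothelial genes had a median of 4.17: the tight junction gene Cldn5 had values of 33.2, 32.9 and 33.5. Mural cell genes had a median of 2.43 per kb and meningeal fibroblast genes of 1.90. These medians and the endothelial one were below the median of all genes, 5.66 per kb. The plot of marker levels orders the lists in this way.

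**Figure D2:**
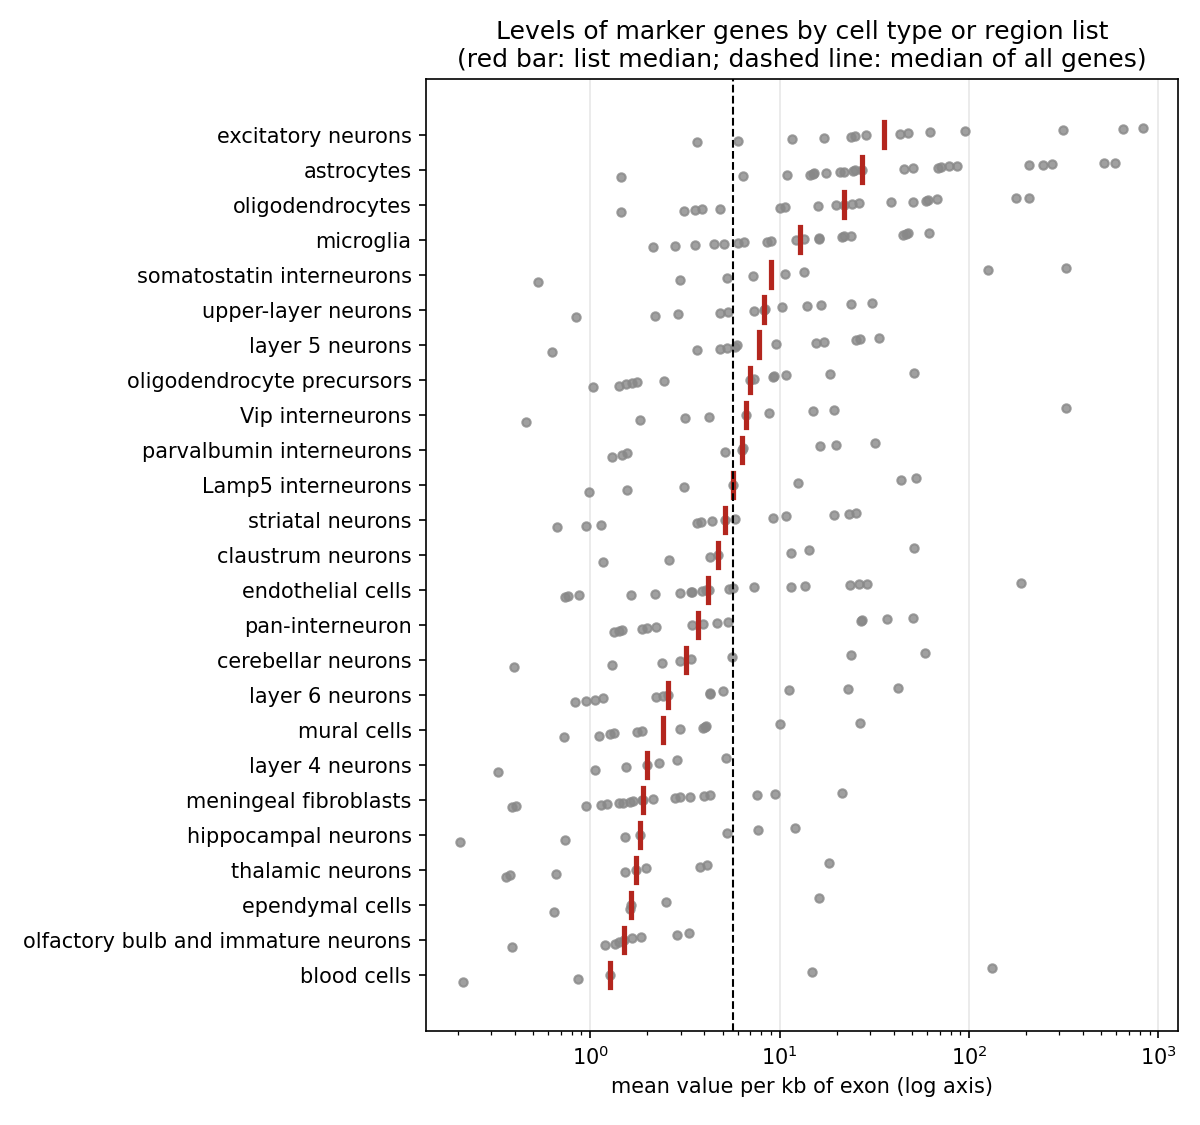
Mean value per kb of exon (log axis) of every measured marker gene (grey points) in the 25 cell type and region lists with at least 5 measured genes; red bars are list medians and the dashed line is the median of all genes, 5.66. Excitatory neuron, astrocyte, oligodendrocyte and microglial lists have the highest medians, and lists of other brain regions and of blood lie at or below the line, though single members reach far above it.

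Lists of neighbouring regions held genes that cortex also expresses, so their defining members were read singly. Drd2 and Adora2a, of striatal projection neurons, had values of 1.19, 1.18 and 2.77, and of 2.58, 3.89 and 3.96, while Drd1, which layer 6 and layer 5 cells also express, had 16.8, 12.8 and 12.3. Prox1, of the dentate gyrus, had 5.65, 6.51 and 6.43. Tcf7l2, of the thalamus, had 2.25, 3.65 and 3.55. Choroid plexus genes were nearly absent from the genes analysed, with 2 of 13 present, and Ttr was not one of them. No haemoglobin gene was among the 5 of 16 blood genes present, and Ptprc, the leukocyte antigen CD45, had values of 3.17, 4.05 and 4.57. Cdhr1, a cadherin gene of olfactory bulb projection neurons, had 5.31, 3.02 and 13.3, and Th, the dopamine-synthesis enzyme gene, had 2.24, 2.10 and 5.24; both were highest in replicate 3.

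Genes of the presynaptic release machinery were among the highest families: 31 of 31 listed genes were measured, they held 2.21% of the values, and their median of 104 per kb lay at the 97.7 percentile. Snap25 led it with 404 ± 85 per kb. Syt1, the calcium sensor of release, had values of 1939, 1758 and 1366. Calcium sensors and kinases, the family of calmodulin and CaMKII, held 2.14%, with a median of 113 per kb. Camk2a was 8.1 ± 1.0 times as high per kb as Camk2b, the subunit that binds actin. The ratio was 5.44 with the longest transcript as the length.

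Postsynaptic scaffold genes were lower and more even among libraries. Their 19 genes held 0.665% with a median of 35.5 per kb, and the sums of the list were 6741, 6554 and 6692. Dlg4, which encodes PSD-95, had values of 947.7, 901.9 and 965.9. Shank1 was 1.96 ± 0.05 times as high per kb as Shank3, and Shank3 1.57 ± 0.09 times as high as Shank2. These ratios were 1.68 and 1.63 with the longest transcript as the length. Homer1, whose short form is induced by activity, was the single scaffold gene with a ratio of at least 1.5 between the highest and lowest library, which 7.13% of all genes with a mean value of at least 5 had; its values were 244.6, 237.0 and 159.0.

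Among glutamate receptors, AMPA receptor subunit genes were high: Gria1 had 72.0 ± 4.1 per kb and Gria2, the subunit that blocks calcium entry, 43.9 ± 2.0. Grin1, the obligatory NMDA receptor subunit, had 54.1 ± 6.1 per kb, while Grin2b and Grin2a, with very long exons, had 3.70 ± 0.31 and 2.58 ± 0.43. Grm3 was the highest metabotropic receptor gene per kb at 31.7 and Grm5 followed at 21.2. For GABA, the metabotropic Gabbr1 had values of 764.2, 718.7 and 666.6. Sums of the GABA receptor list were 3030, 2927 and 2428, lowest in replicate 3, which was also the lowest library for 10 of the 15 genes, against 38.7% of all genes.

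Receptors for neuromodulators were lower still, with a median of 2.87 per kb over 28 genes, at the 32.7 percentile. Chrm1, the main muscarinic receptor of pyramidal cells, led with values of 215.4, 200.1 and 183.9. Adra1d and Adra1b, which encode alpha-1 adrenergic receptors, had 51.1, 51.4 and 26.7, and 42.6, 46.8 and 22.4, so both were lower in replicate 3 than in either other library. Htr2a, the serotonin receptor of layer 5 pyramidal cells, had 30.2, 27.9 and 17.7 and ran the same way. Htr1a, another serotonin receptor gene, had 16.4, 15.8 and 18.2 and did not.

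Metabolic genes were high. Glycolysis genes had a median of 218 per kb, at the 99.2 percentile, the highest of the function lists, led by Aldoa with values of 2018, 1712 and 1420 and Pkm with 1639, 1442 and 1252. Genes of the citric acid cycle had a median of 45.3 and the 80 nuclear genes of oxidative phosphorylation of 54.4 per kb. The 81 cytosolic ribosomal protein genes held 1.38% of the values, with a median of 81.9 per kb; many have near-identical copies in the genome, and reads may have been divided among them.

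Activity-induced genes were expressed at baseline. Arc, whose protein trims synaptic AMPA receptors, had values of 443.2, 379.6 and 431.9, Egr1, a transcription factor gene, had 420.0, 370.9 and 296.1, and Fos had 53.4, 43.4 and 47.9. Npas4, a neuron-specific induced factor, had 28.21, 35.02 and 56.51. Of 38 such genes with a mean value of at least 5, 13 had a ratio of at least 1.5, against 7.13% of all genes at that level, but not in a common order: Npas4, Btg2 and Klf2 were highest in replicate 3, and Egr3, Ier5 and Nptx2 were lowest there. None of the 19 clock genes reached a ratio of 1.5, against 7.13% of all genes with a mean value of at least 5. Their median ratio was 1.20, beside 1.18 for all genes at that level. Per1 had 120.2, 121.0 and 123.1 and Arntl, which encodes BMAL1, had 44.2, 46.5 and 45.7. Of the 25 genes of H3K9 methylation, the mark that UNC0642 acts on, Ehmt2 had values of 242.4, 208.0 and 234.8 and Ehmt1 of 36.0, 35.9 and 36.8. Per kb, Ehmt2 was 9.3 ± 0.7 times as high as Ehmt1, and 8.4 times in the recovered reads.

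The 3 libraries were alike for most genes. For the 11780 genes with a mean value of at least 5, the median ratio of the highest to the lowest library was 1.18, with quartiles of 1.11 and 1.29. A ratio of at least 1.5 was found in the 840 genes that make up the 7.13% given above, and of at least 2 in 74 genes. The share was 16.4% of genes with mean values of 5 to 20, 3.29% of those from 20 to 100 and 1.97% of those from 100. Replicate 3 was the highest library in 536 of the 840 and replicate 1 the lowest in 428. Without replicate 3 the count was 154, and without replicate 1 it was 375.

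Counting error widens such ratios, the more so at low values, so the recovered reads were set against it. An index of dispersion (a chi-square statistic with 2 degrees of freedom, with library totals as exposure and Benjamini-Hochberg adjustment) passed an adjusted p of 0.05 in 6000 of 14440 genes with reads, 41.6%. Between replicates 1 and 2 alone, 1811 genes passed. This test compares these libraries and says nothing of a condition; no pair was alike within sampling noise, and all 3 were counted as separate samples. The plot of spread against level shows where the named genes lie.

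**Figure D3:**
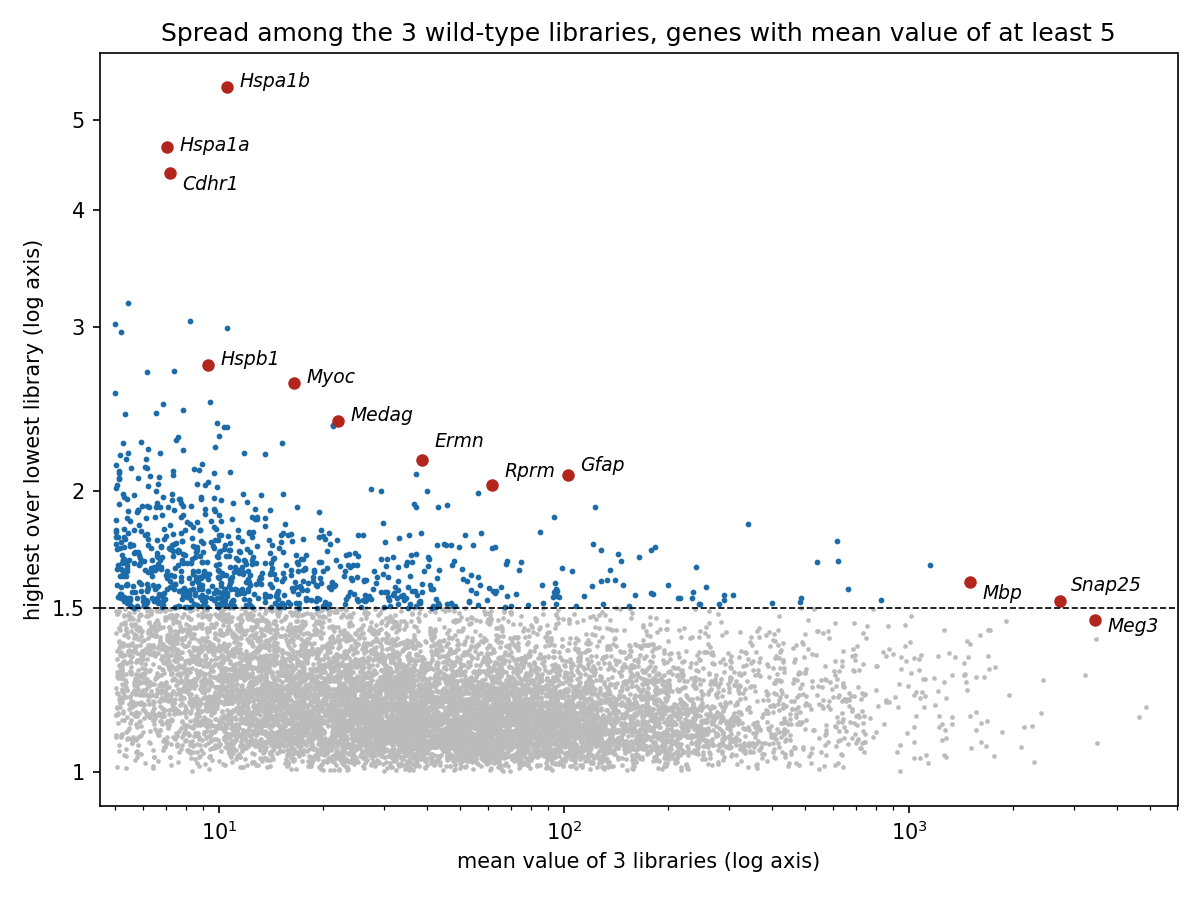
Ratio of the highest to the lowest of the 3 wild-type libraries (vertical log axis) against the mean value (horizontal log axis) for 11780 genes; blue points are the 840 genes at or above the dashed line at 1.5, and named genes are red. Hspa1b, Hspa1a and Cdhr1 lie above 4, and Mbp and Snap25, with mean values of at least 1000, lie just above the line.

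Among genes with a mean value of at least 5, the widest ratios belonged to the inducible heat shock genes Hspa1b and Hspa1a. Heat shock proteins are chaperones, and Hspa1a and Hspa1b, which encode HSP70, and Hspb1, which encodes HSP27, are switched on by the factor HSF1 through heat shock elements close to the start of transcription. To show the element these genes share, the 250 bases before the RefSeq start (GRCm38.p6, 5′ to 3′ on the strand of the gene) are printed with each match to GAANNTTC, a pair of inverted heat shock units, in capitals.
Hspa1a, chr17:34972157-34972406, minus strand: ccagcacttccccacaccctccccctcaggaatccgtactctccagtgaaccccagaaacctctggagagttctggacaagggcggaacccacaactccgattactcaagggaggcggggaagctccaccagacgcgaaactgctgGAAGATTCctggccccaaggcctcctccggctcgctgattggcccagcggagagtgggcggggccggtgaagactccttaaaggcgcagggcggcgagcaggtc
Hspa1b, chr17:34959239-34959488, minus strand: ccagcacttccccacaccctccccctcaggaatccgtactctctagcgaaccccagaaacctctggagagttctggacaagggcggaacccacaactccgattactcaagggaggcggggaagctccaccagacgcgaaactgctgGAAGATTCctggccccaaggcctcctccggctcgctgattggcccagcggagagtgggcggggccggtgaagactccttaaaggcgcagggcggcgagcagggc
Hspb1, chr5:135887669-135887918, plus strand: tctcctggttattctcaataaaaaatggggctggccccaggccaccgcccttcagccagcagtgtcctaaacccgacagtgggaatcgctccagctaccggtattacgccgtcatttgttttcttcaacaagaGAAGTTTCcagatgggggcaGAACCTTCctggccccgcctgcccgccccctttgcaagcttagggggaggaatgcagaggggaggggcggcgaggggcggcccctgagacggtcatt

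The match began 104 bases before the start in both HSP70 genes, whose 250 bases were identical at 247 positions, and 117 and 97 bases before it in Hspb1. GAANNTTC reads the same on both strands; 7.73% of 27025 genes with a RefSeq promoter held a match in these 250 bases. Of the 22 genes of the heat shock and unfolded protein list with a promoter in the table, 6 held a match: these 3, Hspd1, Hspe1 and Dnaja1. A match is a description of letters and was not tested for binding.

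Hspa1b had values of 3.67, 7.95 and 19.9, from 49, 123 and 300 reads. Hspa1a had 2.93, 4.44 and 13.7, from 39, 68 and 208 reads. As these genes are near-identical copies, reads may have been divided between them, and they are not independent of each other. Hspb1 had 4.91, 9.44 and 13.4, from 67, 148 and 203 reads. All 3 were lowest in replicate 1 and highest in replicate 3.

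Other chaperones of the cytosol and mitochondria varied less. Dnajb1, an HSP40 partner, had values of 82.0, 88.3 and 106.8, highest in replicate 3 by a smaller ratio. Hsph1, of the HSP110 family, had 422.9, 468.5 and 433.0, and the constitutive Hspa8 had 2489, 2541 and 2196. Hspd1, Hspe1 and Dnaja1, which hold the same motif, varied by 1.09, 1.12 and 1.15-fold. Chaperones of the endoplasmic reticulum were instead highest in replicate 2, such as Hspa5 with 361.6, 481.5 and 393.4 and Sdf2l1 with 14.1, 23.2 and 16.0. Over the list, 4 of 27 genes had a ratio of at least 1.5, against 7.13% of all genes and 16.4% of those with mean values of 5 to 20, and replicate 2 was the highest library for 18, against 25.2% of all genes.

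The 20 genes of widest ratio had mean values of at most 22.1 and ratios of 2.36 to 5.42. Replicate 3 was the highest library for 13 of them and the lowest for the other 7. Among those high in replicate 3 were Myoc, which encodes myocilin and is expressed by astrocytes of the brain surface, with 10.4, 11.8 and 27.1, Abi3bp, an extracellular matrix gene, with 5.04, 4.64 and 12.5, and Gpx3, a secreted glutathione peroxidase gene, with 8.04, 5.78 and 14.4. Rtl1, Hif3a, Il16, Atp6ap1l and 2700097O09Rik were also highest there, while Itga10 had 2.91, 7.75 and 7.80, with replicate 1 apart. Among those low in replicate 3, Medag had 294, 368 and 147 reads, Met, the receptor gene for hepatocyte growth factor, had values of 7.74, 12.7 and 4.19, and Pcdhga3, a clustered protocadherin gene, had 12.2, 14.5 and 4.84. Shroom3, Il1rapl2, Slc17a8 and Gm5468 were also lowest there. The smallest read number behind any of their values was 25. As the 20 were chosen for their ratio, these values are a description.

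For myelin genes, replicate 1 was the library apart. All 19 oligodendrocyte genes were lowest in replicate 1, against 33.4% of all genes, and 16 of 19 had a ratio of at least 1.5, against 7.13%. Mbp, whose protein compacts the sheath, had values of 1084, 1732 and 1704. Mobp had 121.2, 205.2 and 209.8, Mag, a myelin adhesion gene, had 69.4, 110.8 and 114.9, and Ermn, a cytoskeletal gene of myelinating cells, had 24.0, 51.9 and 40.5. The list summed to 2910, 4652 and 4562, a 1.60-fold range, of which replicates 2 and 3 made 1.02-fold. Of the precursor genes, 12 of 13 were lowest in replicate 1, and 2 of 12 with a mean value of at least 5 reached 1.5, against 7.13% of all genes. Olig2, a transcription factor gene of the lineage, had 22.8, 30.1 and 28.8.

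Astrocyte, microglial, vascular and surface genes were highest in replicate 3, in each list above the 38.6% of all genes that were highest there. For astrocytes this held for 22 of 23 genes, S100b being the other, and the list summed to 9503, 9698 and 12482. Apoe had values of 1168, 1078 and 1532, Aqp4, the water channel of astrocytic endfeet, had 104.9, 130.9 and 172.9, and Slc1a3 had 641.8, 656.7 and 905.0. For microglia it held for 17 of 20 genes, with sums of 711.0, 765.6 and 959.6. No microglial gene reached 1.5-fold, against 7.13% of all genes with a mean value of at least 5. Endothelial genes were highest in replicate 3 in 15 of 20 and mural genes in 8 of 12. Among the mural genes was Acta2, the actin of smooth muscle, with 7.75, 6.65 and 11.5.

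Meningeal fibroblast genes were highest in replicate 3 in 19 of 20 genes, with sums of 284.3, 270.0 and 435.4, a 1.61-fold range. Of the 16 with a mean value of at least 5, 9 had a ratio of at least 1.5, against 7.13% of all such genes. Col6a1, a collagen gene, had values of 74.2, 71.7 and 134.5, Igf2, a growth factor made in the leptomeninges, had 43.4, 43.7 and 76.1, and Fmod, a matrix proteoglycan gene, had 7.92, 7.19 and 14.5. Replicates 1 and 2 were close for each of these. Over all 38 collagen genes, replicate 3 was the highest in 27, against 38.6% of all genes. The collagen and fibroblast lists share members such as Col6a1. The part of the meninges, of the olfactory genes named above or of any other tissue at the edge of the dissection in the values of replicate 3 was not tested.

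**Figure D4:**
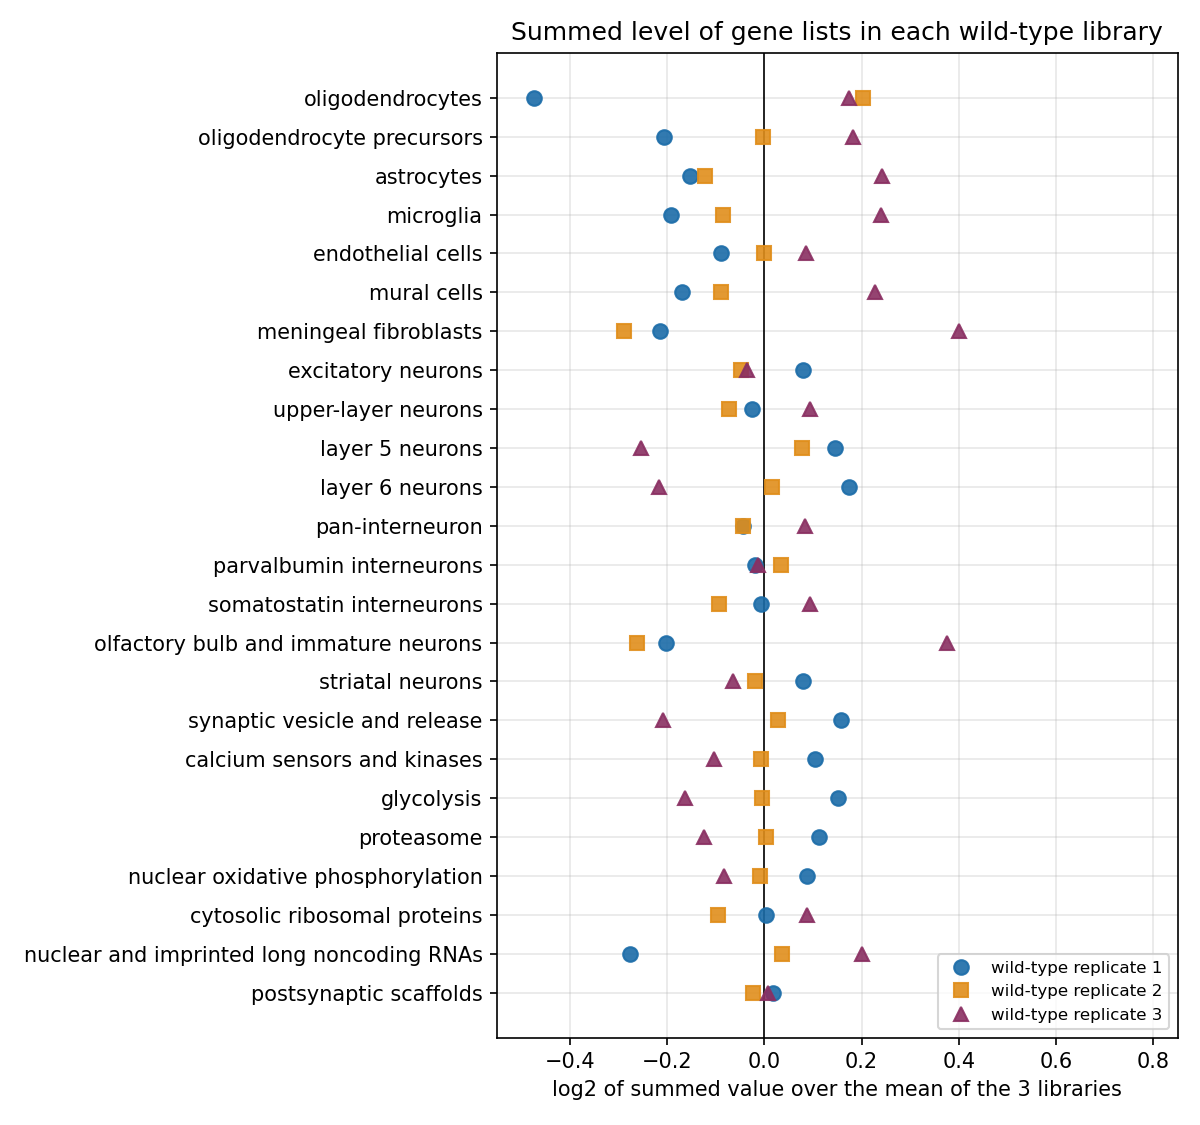
Summed value of 24 gene lists in each wild-type library, as log2 over the mean of the 3 libraries. Replicate 1 lies at the low end for oligodendrocytes and long noncoding RNAs, and replicate 3 at the high end for astrocytes, microglia and meningeal fibroblasts and at the low end for layers 5 and 6, synaptic vesicle genes and glycolysis.

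Deep-layer and presynaptic genes were lowest in replicate 3, where 38.7% of all genes were lowest. This held for 12 of 12 layer 5 genes, with sums of 783.2, 747.5 and 593.6, and for 10 of 13 layer 6 genes, with sums of 390.5, 350.2 and 297.9. Rprm, at 86.1, 56.4 and 42.4, had the widest ratio among the layer genes with mean values above 20, and Deptor, an inhibitor of mTOR that marks layer 5, had 53.5, 65.0 and 36.2. Upper-layer genes did not follow: 1 of 13 was lowest in replicate 3, and their sums were 820.3, 794.1 and 890.5. Of the layer 6 genes, Nr4a2 and Ntsr1 went against the others, with 14.0, 13.9 and 24.7, and 8.00, 7.99 and 12.7.

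Among presynaptic genes, 27 of 31 were lowest in replicate 3, with sums of 24796, 22660 and 19219. Snap25 and Syt1, given above, were part of this, as was Sv2b, a vesicle glycoprotein gene, with 871.7, 783.3 and 608.2. The large active zone scaffolds barely moved, with Pclo at 383.8, 386.3 and 369.4 and Rims1 at 201.6, 211.0 and 199.1. Glycolysis genes were lowest in replicate 3 in 15 of 16, the exception being Aldoc, the astrocytic aldolase, with 807.8, 807.8 and 1082. Proteasome genes ran the same way in 35 of 43. Cytosolic ribosomal protein genes ran differently, with replicate 3 highest and replicate 2 lowest in 64 of 81 each, where replicate 2 was the lowest for 27.9% of all genes, and sums of 13883, 12964 and 14719. Interneuron lists differed among themselves. The parvalbumin list was near even, with sums of 434.9, 451.7 and 436.8, while replicate 3 was the highest library for 10 of 14 pan-interneuron, 7 of 8 somatostatin and 8 of 9 Vip genes, against 38.6% of all genes. The Vip list was nevertheless lowest there in its sums of 592.5, 539.1 and 506.8, as its remaining 1 gene was highest in replicate 1. Cck, a member of this list, was 1.11, 1.07 and 0.835 times as high per kb as Sst in replicates 1, 2 and 3.

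**Figure D5:**
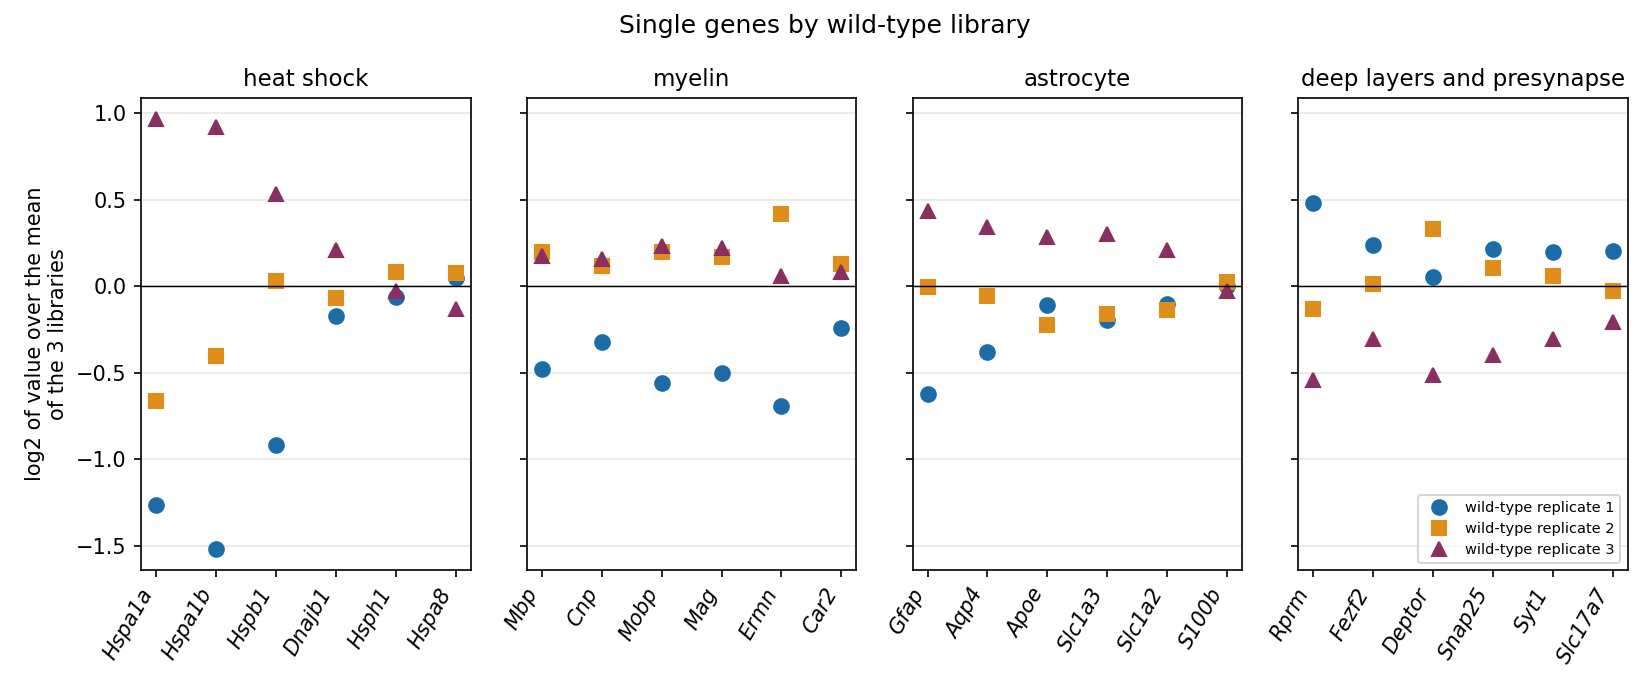
Log2 of the value over the mean of the 3 libraries for single genes in 4 groups, with a symbol for each library. Hspa1a, Hspa1b and Hspb1 are lowest in replicate 1 and highest in replicate 3; myelin genes are low in replicate 1; most of the astrocyte genes shown are high and the deep-layer and presynaptic genes low in replicate 3.

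A trend with transcript length ran beside these differences. With genes divided into 5 bins of nearly equal number by their longest transcript, the median log2 ratio of replicate 3 to replicate 1 was -0.08 in the shortest bin, up to 2142 bases, and 0.05 in the longest, from 5611 bases. For replicate 2 against replicate 1 the medians were -0.07 and 0.02. Over lists, the median log2 ratio of replicate 3 to replicate 1 was 0.65 for oligodendrocytes and 0.47 for astrocytes. It was -0.46 for layer 5, -0.33 for presynaptic genes and -0.25 for the proteasome. The part of length, RNA quality or dissection in any of these differences was not tested.

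Genes used as references differed in evenness. Gapdh had values of 1076, 935.0 and 834.3 and Pgk1 of 546.1, 521.9 and 396.3, in the order of the glycolysis list to which both belong. Actb had 669.0, 614.2 and 656.7, and Rplp0 had 195.0, 189.0 and 201.2. None of the 15 reference genes reached a ratio of 1.5, against 7.13% of all genes with a mean value of at least 5. The share was 1.97% for genes with mean values from 100. The most even genes with a mean value of at least 5 were Zbtb25, Ctcf and Psd3, at ratios below 1.01; Ctcf, the insulator protein gene, had 66.5, 66.7 and 66.8.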

How the data were processed

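Libraries were stranded, from Trizol-extracted total RNA with ribosomal RNA removed, as the labels' protocols state. The tools named in the submitters' processing notes are cutadapt, TopHat2 and HTSeq, on the mm9 build; their versions and the normalization were not given in the sources used. The deposited values, which the authors call CPM, are a signal per gene: none is 0, and for every gene the mean log2 value was equal in 2 sets of libraries (wild type with UNC0642 replicates 2 and 3, and the other 4), a step no label mentions. Whole reads were recovered by solving for the shift between the sets, with a prior of 3 reads on average and a value of 0.2187 at 0 reads before the shift; all 14444 genes gave 1 solution within 0.02 reads, and the solving step was tested on simulated data. Column names matched library titles, and 0 columns were left out.

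Mean, SD, share, level per kb (GENCODE M21 exons, matched by current or older symbol; 133 genes unmatched) and the ratio of highest to lowest library were computed; a ratio of at least 1.5 at a mean value of at least 5 was counted. The planned CPM unit did not hold, so no count model was fitted. The index of dispersion was tested on simulated data. The members and lists were chosen with earlier results of these data known. Genes named were the 20 largest by share, by level per kb and by ratio, up to 4 highest and 3 widest members of each list described, and defining markers; others named were chosen after their values were seen, and some that the rule takes are not reported here. Promoters came from RefSeq (GRCm38.p6). No genome of mm9 was used. Alternatives are in the closing section. Computations used scipy 1.17.1, pandas 2.3.3 and numpy 2.4.6 under Python 3.11.15, with figures by matplotlib 3.10.9. The recovered reads, 12035098 to 13267359 per library, give a median counting CV of 4.68% per gene against a CV of 8.61% among libraries, over genes with a mean value of at least 5.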

Additional observations from a re-analysis of the deposited data

How the results depend on the processing

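The share of the 20 largest genes was 5.22%; it was 5.54% in the recovered reads and 4.96% with only protein-coding genes in the total, and 5.13% to 5.30% without each library in turn. Of the 20 highest genes per kb, 17 were shared with a ranking by the longest transcript and 20 with one by the recovered reads. The count of 840 genes with a ratio of at least 1.5 became 2093 at a mean value of at least 1, 2181 without a filter, 234 at a mean value of at least 20 and 74 at a ratio of at least 2, as each rule by its construction admits more or fewer genes. It was 848 with median-of-ratios scaling and 750 with a pseudocount of 0.5. Without each library in turn it was 154 to 622, with 2 libraries in place of 3. The count beyond counting error was 1811 to 5265 without each library, against 6000, and 6044 with median-of-ratios factors. Of 28 cell type sums, 8 moved by more than the SD of the libraries in the recovered reads. None of 84 sums did so on leaving out a library. With 3 libraries a mean cannot move that far, so this is no check. Between libraries, the log2 ratios of the sums of 12 lists moved by less than 0.1 with median-of-ratios scaling and in the recovered reads, alternatives chosen after seeing the data. The sign turned for oligodendrocytes in replicate 3 over 2 (-0.028, and 0.0061 in the recovered reads) and for the pan-interneuron list in replicate 2 over 1 (-0.00062, and 0.0068 with median-of-ratios scaling and 0.032 in the recovered reads). No paired analysis was possible because no groups were compared. Depth limits ratios of low genes: the median counting CV was 8.43% at mean values of 5 to 20 and 2.10% from 100.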

Other observations

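A few genes had deposited levels far from the reads behind them, and were chosen for this after their values were seen. Mrgpra6 had a mean value of 14.8, against 246 RPM in the recovered reads. Dynlt1a had 14.4 against 38.3 RPM. In the opposite direction, Oaz1, which encodes antizyme and is an abundant messenger RNA in most tissues, had a mean value of 0.543 against 0.0554 RPM, from 2, 0 and 0 reads. Eno1, a glycolysis gene with a near-identical copy among the genes analysed, had values of 36.5, 33.6 and 25.1, at the 51.3 percentile per kb, where the other glycolysis genes lay at or above the 86.6 percentile.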
